A study of Mus musculus with 18 samples.

Results

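The GIMAP genes (GTPases of the immunity-associated protein family) were followed through bulk pancreas RNA of 18 mice. The set holds 8 genes, Gimap1, Gimap3, Gimap4, Gimap5, Gimap6, Gimap7, Gimap8 and Gimap9, of the 25651 genes in the count table, each matched by its symbol. They were chosen by the measured difference of KPC against WT, in which Gimap5 was among the strongest rises. Values of that contrast are therefore given as a description and without a test. Of the 8 members, 2 (Gimap5 and Gimap6) passed the filter on low counts that 6920 genes passed. The other 6 are described from their counts and from a fit that used no filter. The mice, all of mixed 129Sv x C57BL/6 background, were kept under SPF conditions to an age of 20 weeks and had no treatment named in the labels. The groups were 6 mice of genotype WT, 7 of genotype KPC and 5 of genotype KPC ASC KO. KPC mice are widely used as a model of pancreatic cancer. The labels spell out neither the alleles nor the Cre driver, and they give no sex, litter or histology. ASC, encoded by Pycard, is the adaptor that links inflammasome sensors to caspase 1, and the KPC ASC KO mice lack it on top of the KPC genotype.

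GIMAP proteins are small GTPases that sit on membranes inside lymphocytes, among them those of lysosomes, mitochondria, the Golgi apparatus and the endoplasmic reticulum. They are best known for keeping resting T cells and B cells alive. Mice and rats without Gimap5 lose T cells, and endothelial cells also hold some members of the family. A healthy pancreas consists mostly of acinar cells, which make digestive enzymes, and holds few lymphocytes.

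The 8 genes lay side by side on chromosome 6 of GRCm38, from 48647234 to 48770851, a stretch of 123618 bases. Their order by position was Gimap8, Gimap9, Gimap4, Gimap6, Gimap7, Gimap1, Gimap5 and Gimap3, with Gimap6 and Gimap3 on the minus strand and the others on the plus strand. Gimap1os is annotated antisense to Gimap1, and whether the counting used strand is not given in the sources used here, so reads of that pair may be mixed. Gimap1os had 1 count over the WT mice, 40 over the KPC mice and 0 over the KPC ASC KO mice. Gm28053, a protein-coding gene on the plus strand, overlaps Gimap7, Gimap1 and Gimap5, so strand alone would not separate its reads from theirs. How reads in that overlap were counted is not given either. Reads of related members could be confused as well. In the last 500 bases of each member's longest coding transcript, however, 0 of 400 stretches of 101 bases, the read length, occurred in any other gene. Promoter windows (250 bases before to 50 bases after the start, from RefSeq, GRCm38.p6) matched all 8 members by symbol. Those of Gimap5, Gimap6 and Gimap8 are shown, because Gimap5 and Gimap6 were the members that could be tested and Gimap8 was nearly silent in WT. Capitals mark 3 motifs, each searched on both strands. They are the ETS core with its flank (GGAAGT, or ACTTCC on the other strand), the RUNX core (TGTGGT, or ACCACA) and the letters of the TATA box (TATAAA, or TTTATA). The ETS core without that flank was not searched.
Gimap5, chr6:48745947-48746246, plus strand: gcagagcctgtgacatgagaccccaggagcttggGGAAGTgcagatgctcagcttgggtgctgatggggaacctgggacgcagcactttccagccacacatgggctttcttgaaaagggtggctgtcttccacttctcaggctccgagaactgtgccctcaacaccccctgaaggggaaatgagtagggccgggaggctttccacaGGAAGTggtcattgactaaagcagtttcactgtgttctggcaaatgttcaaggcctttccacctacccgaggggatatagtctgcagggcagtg
Gimap6, chr6:48708195-48708494, minus strand: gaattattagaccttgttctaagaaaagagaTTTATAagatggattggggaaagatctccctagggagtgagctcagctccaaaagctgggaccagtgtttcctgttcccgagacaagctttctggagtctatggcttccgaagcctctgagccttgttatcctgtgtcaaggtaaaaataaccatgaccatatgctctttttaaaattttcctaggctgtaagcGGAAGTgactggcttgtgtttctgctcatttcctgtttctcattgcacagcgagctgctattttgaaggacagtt
Gimap8, chr6:48646984-48647283, plus strand: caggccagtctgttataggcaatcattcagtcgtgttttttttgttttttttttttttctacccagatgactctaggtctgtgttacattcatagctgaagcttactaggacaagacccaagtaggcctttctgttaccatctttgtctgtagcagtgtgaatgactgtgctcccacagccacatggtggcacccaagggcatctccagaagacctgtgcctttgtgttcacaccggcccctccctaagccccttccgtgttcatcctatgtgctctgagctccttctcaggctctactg
The window of Gimap5 held GGAAGT, and that of Gimap6 held GGAAGT and, on the other strand, TATAAA. That of Gimap8 held none of the 3 motifs as searched, which does not exclude the shorter ETS core. Over the 8 members, GGAAGT was found in 4 (Gimap1, Gimap5, Gimap6 and Gimap9), against 23.8% of 32851 promoters of the same length. TGTGGT was found in 3 (Gimap1, Gimap4 and Gimap7), against 16.8%, and TATAAA in 1, against 13.6%. No match overlapped another. These are matches of letters in a window, not evidence of binding.

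The libraries held 294077 to 416879 counts in WT, 452472 to 1626977 in KPC and 374432 to 647947 in KPC ASC KO. Each count is a captured molecule primed at its poly(A) tail, so counts are not proportional to transcript length. The targeted gene Pycard had a mean level of 19.9 CPM in the KPC ASC KO mice (SD 11.7, n = 5), against 70.0 CPM in KPC (SD 24.2, n = 7) and 58.6 CPM in WT (SD 6.95, n = 6). Against KPC that is a log2 difference of -1.94 (SE 0.35, edgeR adjusted p = 0.0043), and tags from the 3' end need not lie in the deleted part. Without KPC mice 40, 89, 145 and 154 that call was lost (-1.31, adjusted p = 0.144), in a fit that called 1 of 6920 genes. CPM is a gene's count relative to library size, here after TMM scaling, which corrects for differences in composition between libraries. The 8 acinar marker genes were abundant, as pancreas should show: their sum, without TMM scaling, was 154592 to 199102 CPM for WT mice, 16441 to 134881 for KPC mice and 105544 to 177470 for KPC ASC KO mice. KPC mice 40, 89, 145 and 154 stood apart from the other 3 KPC mice by their B cell transcripts, at 1068 to 2611 summed CPM against 122 to 229, and results are given with and without them. Because whole tissue was measured, more cells of a type and more RNA per cell cannot be told apart.

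Gimap5, a lysosomal GTPase needed for T cell survival, was the member for which the set was taken up. Its level was 0 to 5.05 CPM in WT (median 3.43), 2.40 to 30.8 CPM in KPC (median 22.4) and 2.85, 3.91, 3.71, 7.42 and 4.22 CPM in KPC ASC KO mice 318, 335, 377, 384 and 388. In 6 of 7 KPC mice it was above all WT mice, and KPC mouse 48 lay within the WT range. The fitted log2 difference of KPC against WT was 2.76 (SE 0.67). Behind it stood 194 counts in KPC and 4 in WT, a ratio of 16.8 per unit of depth (exact 95% interval 6.44 to 62.1, for counting error only). That ratio is on total counts, without TMM scaling, and is larger than the fitted difference. In this contrast 29.9% of all tested genes were called at an adjusted p under 0.05, 14.8% higher and 15.1% lower; the members are not tested in it, since it chose the family.

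Gimap8, whose product carries more GTPase domains than the other members, was almost absent from WT pancreas. A single count was found in WT mouse 69 and none in the other 5, whereas the 7 KPC mice held 2 to 61 counts and 4 of 5 KPC ASC KO mice held 2 to 6. Its level was 0 to 3.40 CPM in WT, 4.50 to 32.9 CPM in KPC (median 28.1) and 8.55, 7.81, 5.57, 11.1 and 0 CPM in KPC ASC KO mice 318, 335, 377, 384 and 388. All 7 KPC mice were above all 6 WT mice, which held for 1.78% of all 25651 genes and for 3.77% of the 6920 that passed the filter, and for no other member. This is a description in the contrast that chose the family. The pooled ratio of 215 counts in KPC to 1 in WT was 74.3 (exact 95% interval 13.2 to 2948), so that its size is poorly fixed by a single count. The fitted log2 difference, with TMM scaling and no filter, was 4.74 (SE 0.82), and 2.63 (SE 1.16) without KPC mice 40, 89, 145 and 154. With 1 count in WT, these SEs do not reflect the wide interval of the pooled ratio.

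Gimap6, a member tied to autophagy, and Gimap4, which acts in the maturation and death of T cells, were high in some KPC mice and not in others. Gimap6 stood at 6.90 to 31.0 CPM in WT (median 12.8), 2.40 to 85.0 CPM in KPC (median 48.3) and 2.85, 15.6, 18.6, 24.1 and 12.7 CPM in KPC ASC KO mice 318, 335, 377, 384 and 388. KPC mice 40, 89, 145 and 154 were above all WT mice, and 2 KPC mice, 48 and 210, were below all WT mice. Its fitted log2 difference of KPC against WT was 1.35 (SE 0.71). Gimap4 stood at 0 to 27.6 CPM in WT, 4.97 to 73.1 CPM in KPC and 5.56 to 13.0 CPM in KPC ASC KO.

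Gimap1, needed for mature T and B cells, and Gimap3, the closest relative of Gimap5, showed the same division of the KPC mice. Gimap1 stood at 0 to 17.0 CPM in WT, 2.18 to 44.6 CPM in KPC and 0 to 8.44 CPM in KPC ASC KO. Gimap3 stood at 0 to 25.2 CPM in WT, 2.80 to 54.7 CPM in KPC and 0 to 18.5 CPM in KPC ASC KO. For Gimap1, Gimap3 and Gimap4 alike, KPC mice 40, 89, 145 and 154 were above all WT mice and the other 3 KPC mice were inside the WT range.

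Gimap7, a GTPase active as a dimer, had few counts, with 3 over the 6 WT mice, 97 over the KPC mice and 5 over the KPC ASC KO mice. The pooled ratio of KPC to WT on total counts was 11.2 (exact 95% interval 3.71 to 55.1). The fitted log2 difference, with TMM scaling and no filter, was 2.26 (SE 0.81), and it was -0.11 (SE 0.89) without KPC mice 40, 89, 145 and 154. Gimap9 was the member with the smallest difference between KPC and WT. Its level was 0 to 27.6 CPM in WT (median 12.9) and 0 to 29.4 CPM in KPC (median 14.6), and 2 of 7 KPC mice, 145 and 154, were above all WT mice. The KPC ASC KO mice held 4.22 to 11.7 CPM of Gimap9.

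**Figure D1:**
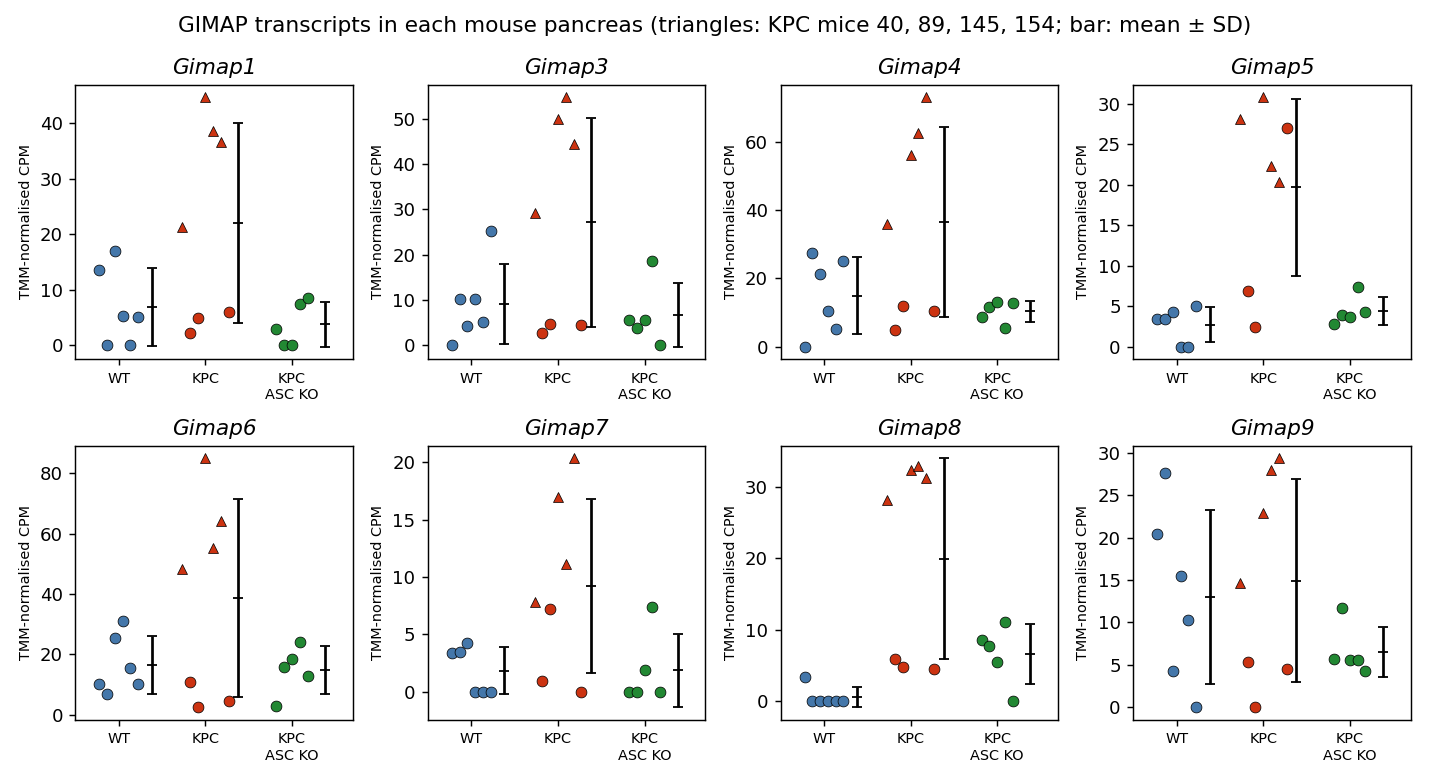
TMM-normalised CPM (y axes, linear, each with its own range) of the 8 GIMAP genes in WT, KPC and KPC ASC KO pancreas, 1 point per mouse, with the mean and SD beside each group of 6, 7 and 5 mice. Triangles are KPC mice 40, 89, 145 and 154, which carry most of the high values, whereas for Gimap5 mouse 210 is high as well and for Gimap8 all 7 KPC mice lie above the WT mice.

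The high values sat in the same few mice. Summed over the 8 genes, GIMAP counts came to 23.8 to 62.5 CPM of a WT library's total (mean 43.5 ± 14.1, SD, n = 6). Sums over a list are given on this scale, to which TMM was not applied. KPC mice 40, 89, 145 and 154 had sums of 278, 625, 518 and 581 CPM, and KPC mice 43, 48 and 210 had sums of 78.7, 35.4 and 79.0 CPM. KPC ASC KO mice 318, 335, 377, 384 and 388 had sums of 20.1, 33.0, 52.6, 97.4 and 26.7 CPM. On this scale KPC mouse 48 was within the WT range and the other 6 were above it. With TMM scaling the WT mice ran from 35.9 to 80.6 CPM, KPC mice 43, 48 and 210 were inside that range at 39.8, 38.4 and 61.5 CPM, and the other 4 were above it at 213 to 339 CPM. KPC mice 40, 89, 145 and 154 held 1853 of the 2038 GIMAP counts of the KPC group (90.9%), against 57.9% of its counts over all genes. The share ran from 78.9% for Gimap5 to 95.3% for Gimap3. With all mice and no filter, the log2 differences of KPC against WT ran from 0.38 for Gimap9 to 4.74 for Gimap8 (median of all 25651 genes 0.60, below which Gimap9 lay). In that fit 10.3% of all genes were called and 6.1% called higher. Without those 4 mice and without the filter, Gimap5 (log2 2.07, SE 0.82) and Gimap8 (2.63, SE 1.16) were above WT in KPC and the other 6 were below, from -0.11 for Gimap7 to -1.60 for Gimap9.

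Summed T cell and B cell markers were highest in the same 4 KPC mice as the family, 40, 89, 145 and 154. These sums are on total counts, a scale on which the median tested gene had a Spearman correlation of 0.70 with the GIMAP sum. The 20 T cell marker genes summed to 77.1 to 141 CPM in WT, 243 to 2025 CPM in KPC and 101 to 383 CPM in KPC ASC KO, and none of the 20 was at 0 in any group. The 15 B cell marker genes summed to 82.2 to 180 CPM in WT, 122 to 2611 CPM in KPC and 98.8 to 398 CPM in KPC ASC KO, again with none at 0. The 14 endothelial marker genes summed to 118 to 194 CPM in WT, 265 to 947 CPM in KPC and 123 to 373 CPM in KPC ASC KO. GIMAP counts per T cell marker count ran from 0.259 to 0.559 in WT, 0.122 to 0.312 in KPC and 0.167 to 0.326 in KPC ASC KO. Per B cell marker count they ran from 0.143 to 0.438, 0.206 to 0.398 and 0.156 to 0.280 in the same groups. Per endothelial marker count they ran from 0.123 to 0.359, 0.127 to 1.18 and 0.163 to 0.261. All 3 ratios overlapped between the groups. For the T cell ratio KPC mice 40, 43, 48 and 210 and KPC ASC KO mice 318, 377, 384 and 388 lay below all WT mice. Of the 3 tested T cell markers, Thy1 had the most counts (2353) and followed the family least. Its Spearman correlation with the GIMAP sum, with TMM scaling, was 0.18, against 0.62 for Ccr7 and 0.63 for Lef1. The weight of Thy1 in the T cell ratio was not tested. For the endothelial ratio KPC mice 43, 48 and 210 lay inside the WT range while mice 40, 89, 145 and 154 lay above it. The part of these cell types in the GIMAP values was not tested. The 9 NK cell marker genes summed to 5.14 to 18.8 CPM in WT, with Ncr1, Klrb1c, Klrk1 and Klre1 at 0. They summed to 13.3 to 165 CPM in KPC, with none at 0 and mice 89, 145 and 154 highest, and to 1.82 to 16.6 CPM in KPC ASC KO, with Ncr1, Gzma and Klre1 at 0.

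**Figure D2:**
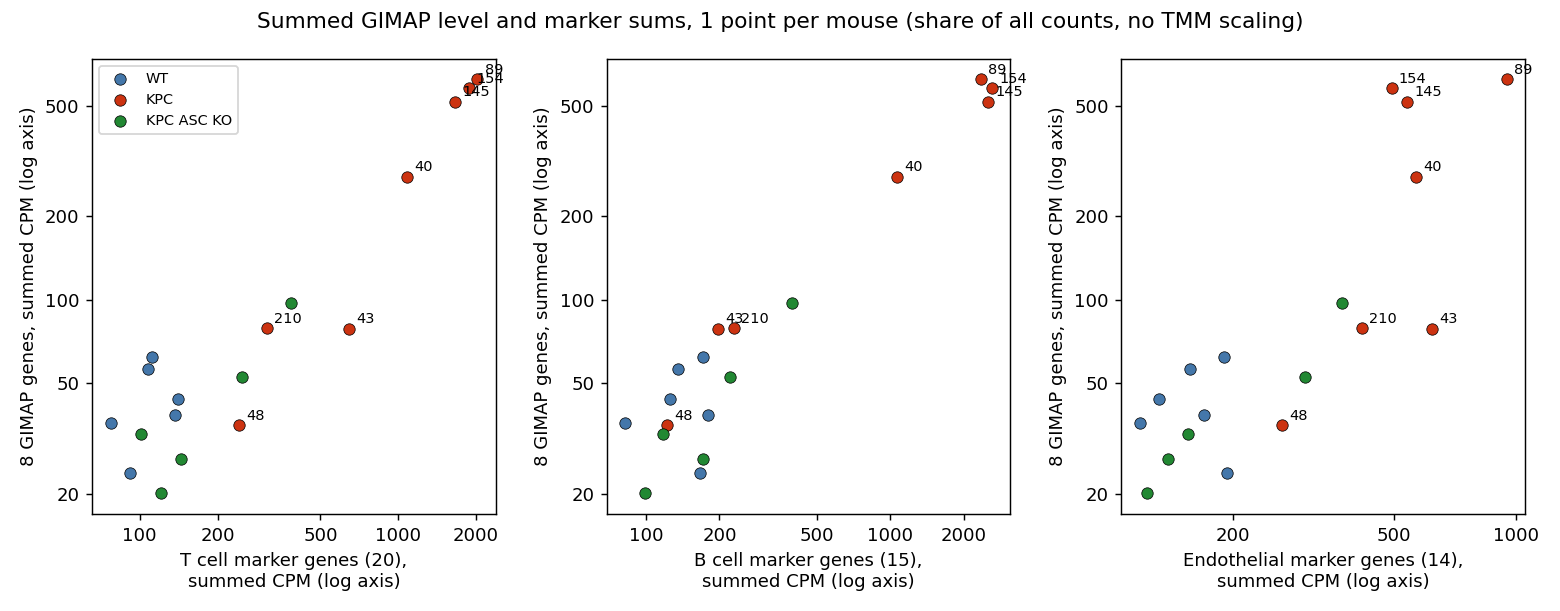
Summed CPM of the 8 GIMAP genes (y axes) against the summed CPM of T cell, B cell and endothelial marker genes (x axes), all log axes without TMM scaling, 1 point per mouse coloured by group, with KPC mice numbered. KPC mice 89, 145 and 154 lie at the upper right of the T cell and B cell panels, and KPC mouse 48 lies among the WT and KPC ASC KO mice in the B cell panel.

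The members did not keep the same proportions in every mouse. Gimap5 made up 43.9% of GIMAP counts in KPC mouse 210 (18 of 41 counts, 95% Wilson interval 29.9 to 59.0). It made up 17.2% in mouse 43 (11.6 to 24.7), 9.09% in mouse 89 (7.10 to 11.6) and 6.38% in mouse 154 (4.60 to 8.78). The interval of mouse 210 lay above those of the 6 other KPC mice. Mouse 210 held 18 Gimap5 counts but 3 of Gimap6 and 3 of Gimap8. Its Gimap5 level of 27.0 CPM was close to the 28.1 CPM of mouse 40, while its summed GIMAP level was 79.0 CPM against 278 CPM.

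Pooled over mice, Gimap9 made up 21.5% of the WT group's GIMAP counts, 8.34% of those in KPC and 10.6% of those in KPC ASC KO. In the same order of groups, Gimap8 made up 1.08%, 10.5% and 12.4%, and Gimap5 made up 4.30%, 9.52% and 7.96%. The WT shares rest on 93 counts in all and the KPC ASC KO shares on 113, and the intervals of single mice are wide. Ranked over the 18 mice, pairs of members had Spearman correlations from 0.140 (Gimap5 with Gimap9) to 0.675 (Gimap3 with Gimap4), with a median of 0.516. All members were read from the same libraries, so they share depth and scaling, and low counts weaken such values.

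**Figure D3:**
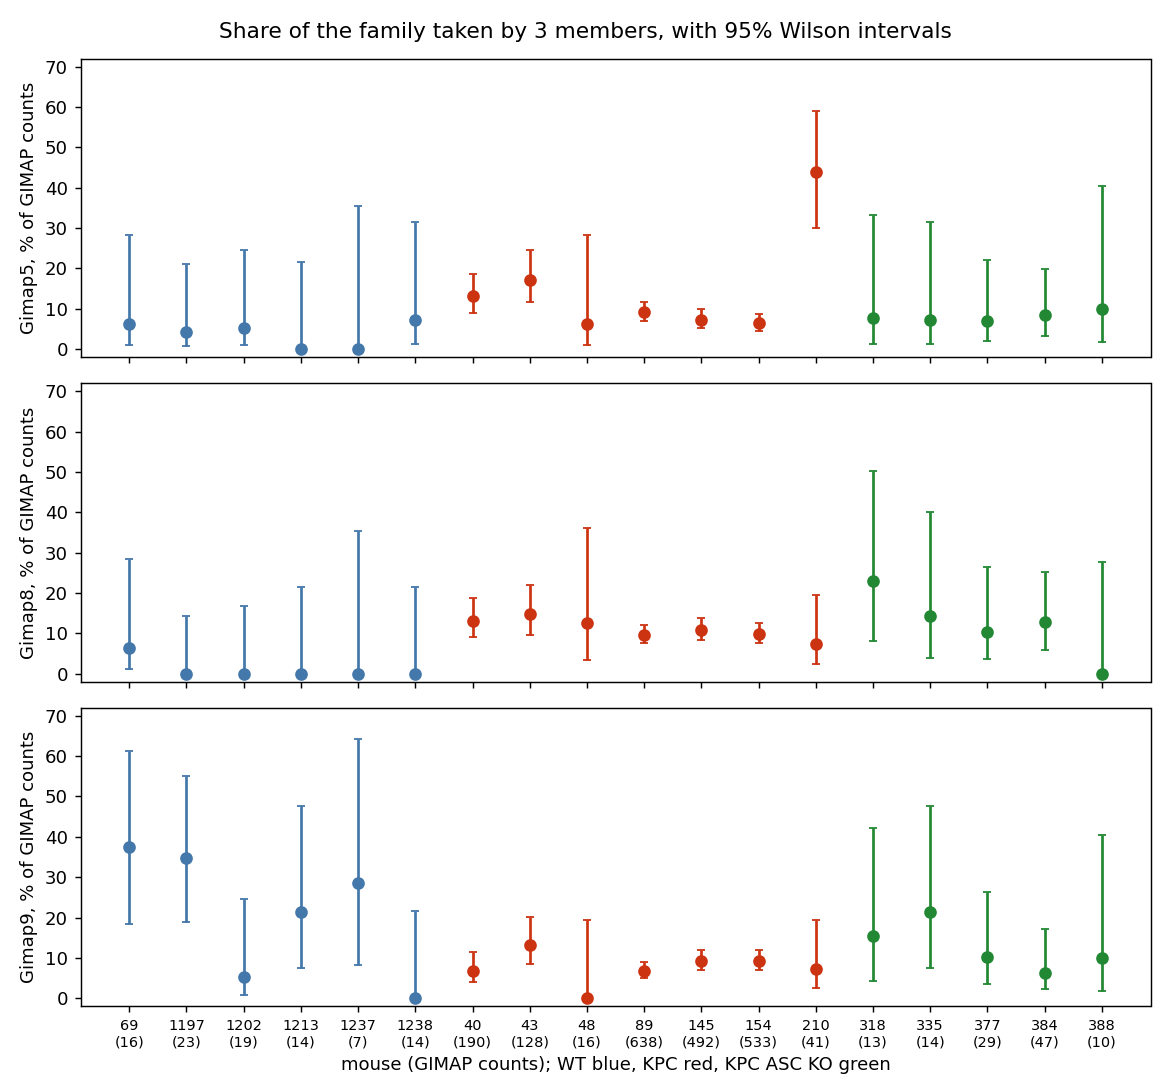
Share of each mouse's GIMAP counts (y axes, percent) taken by Gimap5, Gimap8 and Gimap9, with 95% Wilson intervals for counting error. The x axis lists the mice with their GIMAP counts in brackets, and KPC mouse 210 stands out for Gimap5 at 43.9%.

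The comparison of KPC ASC KO with KPC asks what the loss of ASC changes in KPC pancreas. Gimap5 fell by 2.08 on the log2 scale (SE 0.56, edgeR adjusted p = 0.0231 over 6920 genes), and 5 of 7 KPC mice (40, 89, 145, 154 and 210) were above all 5 KPC ASC KO mice. Gimap6 had a log2 difference of -1.38 (SE 0.68, adjusted p = 0.207) and was not called. Of all tested genes 9.42% were called, 2.69% lower and 6.73% higher. The filter needed 21.4 CPM on total counts in at least 5 mice. Gimap5 reached it in 5 KPC mice and in no other mouse, and Gimap6 in 5 KPC mice and 1 KPC ASC KO mouse. Both members thus entered the test through KPC, which favours a lower level in KPC ASC KO, and the KPC mice also chose the family. The call is therefore a description and not independent support. The fit without the filter covered all 8 members, and the median of all 25651 genes there was -0.41. Every member's log2 difference was negative, from -1.43 for Gimap9 to -2.72 for Gimap1. Of those, Gimap5 (-2.18, adjusted p = 0.0068) and Gimap8 (-1.64, adjusted p = 0.0432) were called, against 2.97% of 25651 genes called and 1.32% called lower. Without KPC mice 40, 89, 145 and 154 neither was called in that fit (Gimap5 -1.36, adjusted p = 0.577; Gimap8 0.38, adjusted p = 0.88). Gimap1 was then at -0.06, and 6 of 8 members, all but Gimap1 and Gimap5, were above 0, from 0.28 for Gimap4 to 1.04 for Gimap3. The median of all 23713 genes was then -0.18, and 200 of them were called.

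The Gimap5 call depended on which mice and tool were used. It was lost without KPC mice 40, 89, 145 and 154 (log2 -1.28, adjusted p = 0.457), and Gimap6 then changed sign (1.04, adjusted p = 0.425). That fit called 1 of all 6920 genes. Leaving out single mice ended the call without KPC mouse 89 (adjusted p = 0.0524) and without KPC ASC KO mice 318 (0.0706), 335 (0.0648) or 388 (0.057), and kept it in the other 14 fits. It was also lost with limma-voom (-1.56, adjusted p = 0.224) and when those 2 groups alone were fitted (-2.09, adjusted p = 0.0626). The call was kept with DESeq2 (-2.13, adjusted p = 0.0165), which called 810 of 6920 genes. It was also kept with edgeR under total counts (-3.13, adjusted p = 0.0012), a fit that called 5193 genes.

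KPC ASC KO pancreas was then compared with WT, mice that also entered the contrast behind the choice. Gimap5 had a log2 difference of 0.68 (SE 0.96, edgeR adjusted p = 0.865) and Gimap6 of -0.03 (SE 0.90, adjusted p = 0.999), and neither was called. In this comparison 0 of 6920 genes were called by edgeR (0%), 691 had an unadjusted p under 0.05, and DESeq2 called 8 and limma-voom 0. The member furthest from WT was Gimap8, with 14 counts in KPC ASC KO against 1 in WT and 4 of 5 KPC ASC KO mice above all WT mice. Its pooled ratio was 12 (exact 95% interval 1.83 to 509). Its log2 difference in the fit without the filter was 3.10 (SE 1.07, edgeR adjusted p = 0.397), and that comparison called 12 of 25651 genes (0.0468%) and none of the members. WT mice held at most 8 counts of any member.

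**Figure D4:**
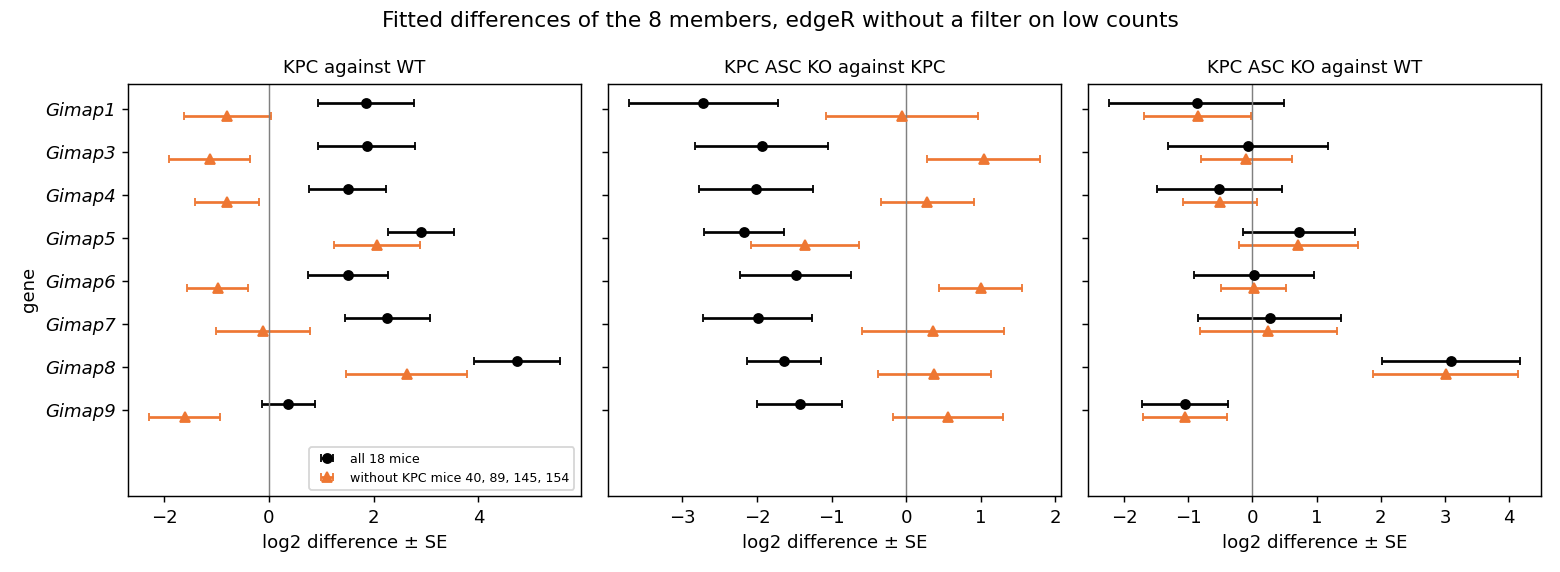
Log2 differences (x axes) with standard errors of the 8 GIMAP genes in 3 comparisons, from edgeR without a filter on low counts, with all 18 mice (black circles) and without KPC mice 40, 89, 145 and 154 (orange triangles). The standard errors were derived from the F values of the tests and are approximate where counts are few. For KPC against WT, Gimap5 and Gimap8 stay above 0 without those 4 mice while the other 6 lie below 0.

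Genes that work beside the GIMAP proteins in lymphocytes were also counted. Of 20 genes of lymphocyte survival and homeostasis, 14 were tested, and 7 were higher and 0 lower in KPC than in WT, beside 14.8% of all tested genes called higher. The list's median log2 difference was 0.79 against 0.06 over all tested genes. Among them Mcl1, a survival protein of the BCL2 family, was higher by 0.63 (SE 0.19, edgeR adjusted p = 0.0168), and Klf2, a factor of resting T cells, by 0.90 (SE 0.31, adjusted p = 0.0298). In KPC ASC KO against KPC 1 of the 14 was called lower, Bcl2, the survival factor that gave the family its name (-1.21, SE 0.36, adjusted p = 0.0388). The list's median was then -0.44 against -0.05 over all genes.

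Other GTPase genes of immunity were counted next. Of 18 interferon-inducible GTPases, 6 were tested and 5 were higher in KPC than in WT (median 1.66). Gvin1, a very large GTPase induced by interferon, was among them (1.73, SE 0.42, adjusted p = 0.0038), as was Gbp7, a guanylate-binding protein (1.42, SE 0.44, adjusted p = 0.0165). None of the 6 was called in KPC ASC KO against KPC, where their median was -1.0. Of 12 haematopoietic regulators of GTPases, 7 were tested and 6 were higher in KPC than in WT (median 1.80), among them Rac2 (1.80, SE 0.49, adjusted p = 0.0118) and Coro1a (2.41, SE 0.60, adjusted p = 0.0066). Arhgdib, also among the 4 with the most counts, was not called (0.74, SE 0.42, adjusted p = 0.197). In KPC ASC KO against KPC 1 of the 7 was called lower, Vav1, an exchange factor of Rac (-1.56, SE 0.44, adjusted p = 0.0303). Vav1 had a mean of 10.2 CPM in WT, 32.2 CPM in KPC and 9.88 CPM in KPC ASC KO. The filter needed 21.4 CPM on total counts, and genes low outside KPC can have passed it through KPC. That favours a higher level in KPC, so calls of such genes are a description. Of these 3 lists no gene was called between KPC ASC KO and WT. Without KPC mice 40, 89, 145 and 154, an alternative added after seeing the data, none of the 3 lists had a called gene in any comparison. That fit called 728 of 6920 genes in KPC against WT, 1 in KPC ASC KO against KPC and 4 in KPC ASC KO against WT. The medians of the 3 lists for KPC against WT were then 0.16, 0.83 and 0.29. Vav1 and Bcl2 were at -0.91 (adjusted p = 0.465) and -0.41 (adjusted p = 0.737) in KPC ASC KO against KPC. Of the 20 T cell markers 3 were tested and 2 were higher in KPC than in WT, and of the 15 B cell markers 8 were tested and 3 were higher. Neither list had a gene called in KPC ASC KO against KPC. Without those 4 mice 1 T cell marker, Thy1, was called higher in KPC than in WT (1.89, edgeR adjusted p = 0.0025). Ccr7 was then at -0.61 and Lef1 at -1.37, neither called, and the T cell list's median was -0.61. Without the same mice 0 B cell markers were higher and 2 were lower in KPC than in WT. Those mice were set apart by their B cell transcripts, so the B cell counts follow in part from that choice and are only a description. The summed levels of lymphocyte markers moved with the same mice, and their part in these differences was not tested.

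The 10 genes most like the summed GIMAP level over the 18 mice, by Spearman correlation of TMM-scaled log2 CPM, were Twistnb (0.899), CT868690.1, Serpina1b, Mfge8 (0.837), Baz1a, Cdc42se2, Cflar, Arhgdib (0.822), Slc20a1 and Lpcat1. The median over 6918 genes was 0.03. Arhgdib is also on the list of haematopoietic regulators. The order depended on the scaling, since 4 of the 10 (Twistnb, Mfge8, Baz1a and Slc20a1) were among the first 10 under total counts, where the median gene correlated at 0.70. Depth and composition differ between the groups and enter such correlations.

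Genes around the cluster were compared last. Of 18 other genes of the count table that start inside the cluster or within 250 kb of it, 5 passed the filter: Zfp467, Gm10243, Rarres2, Tmem176b and Tmem176a. Tmem176a and Tmem176b, a pair of membrane proteins of myeloid cells next to Gimap3, were higher in KPC than in WT by 0.80 (SE 0.22, edgeR adjusted p = 0.0095) and 0.84 (SE 0.20, adjusted p = 0.0031). Between KPC ASC KO and KPC, Tmem176a fell by 0.73 (SE 0.23, adjusted p = 0.0442) and Tmem176b had a log2 difference of -0.41 (SE 0.20, adjusted p = 0.187). Without KPC mice 40, 89, 145 and 154 both calls of Tmem176a were lost (KPC against WT 0.74, adjusted p = 0.0899; KPC ASC KO against KPC -0.66, adjusted p = 0.332), and Tmem176b stayed called in KPC against WT (0.94, adjusted p = 0.0165). That fit called 728 of 6920 genes in KPC against WT and 1 in KPC ASC KO against KPC. Zfp467, Gm10243 and Rarres2 were called in none of the 3 comparisons.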

How the data were processed

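Snap-frozen pancreas of 18 mice gave 1 library per mouse. Per the labels' protocols, a molecular identifier (UMI) of 10 bp and a sample index of 8 bp were added when the poly(A) tail was primed. The deposited table holds UMI counts per gene, not normalised by the authors. Per the submitters' processing notes they used edgeR 3.36.0 and limma 3.50.0 in R 4.1.2, with genome GRCm38 (mm10). Neither the aligner nor the rule for collapsing UMIs is given in the sources used here.

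Groups were taken from the genotype labels. The counts were fitted here with edgeR 4.0.16 (R 4.3.3): filterByExpr with a minimum count of 10, TMM scaling, a robust quasi-likelihood F test over all 18 mice in 3 groups, and Benjamini-Hochberg adjustment over 6920 genes, called at an adjusted p under 0.05. A second edgeR fit used no filter and 25651 genes, and its fitted values for genes near 0 depend on the prior count. The SE given with an edgeR difference was not estimated directly. It is the size of the log2 difference divided by the square root of the F value of its test. It is therefore approximate, above all where counts are few. Ratios of pooled counts have exact conditional Poisson intervals, and shares have Wilson intervals (95%), both for counting error only. Alternatives were total-count scaling, DESeq2 1.42.0, limma-voom 3.58.1, 2-group fits, leaving out each mouse, and leaving out KPC mice 40, 89, 145 and 154 together, which an earlier look at these data found to hold the most B cell transcripts. Alternatives that drop mice kept the 6920 genes, except where the filter was dropped as well. The scripts were tested on simulated data. No pair of libraries of a group differed by less than sampling noise. The labels do not say that mice are from separate litters. The p-values set a difference against the spread between these mice and treat each mouse as independent, so shared litters are not accounted for.

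The members and the gene lists were chosen with earlier results of these data known. All 8 members and Pycard are named whatever their result, then tested genes within 250 kb and the 10 most similar genes (no predicted genes or receptor segments). Apart from single calls, at most 4 genes per list are named. Lists are described by counts and medians, and the genes named from them are among the 4 with the most counts, except genes that were the single call of their list, such as Bcl2, which were named after their values were seen. Marker lists for plasma cells, macrophages, dendritic cells and lymphoid stroma are given under other observations. Protein sequences were not used here.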

Additional observations from a re-analysis of the deposited data

Results flagged for a closer look

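A group's highest or lowest mouse was set against Dixon's 95% critical value in 27 groups of 5 to 7 mice, and 3 groups held a mouse beyond it. That value assumes normally distributed data, so its rate of about 1 in 20 does not hold for groups with so few counts. The 3 groups are only listed, and their number is not set against chance. Gimap7 was 7.42 CPM in KPC ASC KO mouse 384, far above the other 4, and rested on 4 counts. Gimap8 was 3.40 CPM in WT mouse 69, from 1 count, with the other 5 at 0. Gimap9 was 11.7 CPM in KPC ASC KO mouse 335, from 3 counts, as many as KPC ASC KO mice 377 and 384 held.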

How the results depend on the processing

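No paired analysis was possible because no mouse number occurs in more than 1 group. Under total counts the median of all tested genes moved to 1.41 for KPC against WT, -1.14 for KPC ASC KO against KPC and 0.24 for KPC ASC KO against WT. The genes called were then 5684, 5193 and 1, and 2 members were called in each of the first 2 comparisons. Relative to that median Gimap5 was 2.63, -1.98 and 0.67, and Gimap6 was 1.34, -1.32 and 0.04. DESeq2 called 8 genes in KPC ASC KO against WT. limma-voom called 0 members and 1560 of 6920 genes in KPC against WT, and 0 members and 675 genes in KPC ASC KO against KPC. Without the filter 2 members were called in KPC against WT, beside 10.3% of 25651 genes called and 6.1% called higher. That contrast chose the family, so its count is only a description. In KPC ASC KO against KPC 2 members were called without the filter, beside 2.97% of genes called and 1.32% called lower. The same fit called 12 genes in KPC ASC KO against WT. Fits of the 2 groups compared called 0 members and 265 genes in KPC ASC KO against KPC, and 7 genes in KPC ASC KO against WT.

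Without KPC mice 40, 89, 145 and 154, 0 members were called in KPC against WT and 0 in KPC ASC KO against KPC, and the genes called were 728, 1 and 4 in the 3 comparisons. Without those mice and without the filter, an alternative chosen after seeing the data, 0 members were called in either, and the genes called were 1163, 200 and 133 of 23713. In KPC against WT, Gimap1 (-0.79), Gimap3 (-1.13), Gimap4 (-0.79), Gimap7 (-0.11), Gimap9 (-1.60) and Gimap6 (-0.98, or -1.07 with the filter) reversed. In KPC ASC KO against KPC, Gimap3 (1.04), Gimap4 (0.28), Gimap7 (0.36), Gimap8 (0.38), Gimap9 (0.56) and Gimap6 (1.00, or 1.04 with the filter) reversed. For KPC ASC KO against WT, Gimap6 lay near 0 and changed sign under total counts (0.28), without the filter (0.026), and without the filter and those mice (0.020).

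Leaving out each mouse in turn gave 0 to 1 members called in KPC ASC KO against KPC, 195 to 1066 genes called there, 0 to 3 genes called in KPC ASC KO against WT, and -0.32 to 0.22 for Gimap6 in the latter. With TMM scaling the mean summed GIMAP level was 65.5 CPM for WT mice, 188 CPM for KPC mice and 55.0 CPM for KPC ASC KO mice, where it was 43.5, 314 and 46.0 CPM without. The causes were not tested. A WT library held 7 to 23 GIMAP counts in all, which limits the precision of WT levels. Nothing is read from the counts of members called in KPC against WT, the contrast that chose them.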

Other observations

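Markers of other cell types were also read in these libraries. Of 12 macrophage markers 7 were tested, and 6 were higher in KPC than in WT (median log2 1.55), with none called in KPC ASC KO against KPC. Both tested dendritic cell markers, Irf8 and Fscn1, were higher in KPC (median 2.05), and 1 of them, Irf8, was lower in KPC ASC KO than in KPC (-1.79, SE 0.54, edgeR adjusted p = 0.0479). Of 7 plasma cell markers 4 were tested, with Jchain and Sdc1 higher and Xbp1 and Derl3 lower in KPC, and Xbp1 was higher in KPC ASC KO than in KPC. Xbp1 and Derl3 went in the same direction as the acinar markers, and which cells their counts came from was not tested. The 1 tested NK cell marker, Nkg7, was lower in KPC ASC KO than in KPC (-2.0, SE 0.62, adjusted p = 0.0462). Nkg7 had a mean of 11.4 CPM in WT, 29.4 CPM in KPC and 8.18 CPM in KPC ASC KO. It can thus have passed the filter through KPC, which favours that direction. Of 9 lymphoid stroma markers 5 were tested, and Ccl21a, a chemokine that draws T cells, was higher in KPC (1.22, SE 0.40, adjusted p = 0.0296). Of 14 endothelial markers 8 were tested, and Pecam1 was higher in KPC (1.23, SE 0.38, adjusted p = 0.0175). All 8 acinar markers were lower in KPC than in WT, and 7 of them were higher in KPC ASC KO than in KPC. Without KPC mice 40, 89, 145 and 154, an alternative added after seeing the data, 5 macrophage markers were higher and 3 acinar markers lower in KPC than in WT. In that fit the dendritic cell, endothelial and NK cell lists had no called gene in KPC against WT, and 2 lymphoid stroma markers were lower. The 1 plasma cell marker called higher there was Sdc1 (1.59, edgeR adjusted p = 0.0431). Jchain was then at -0.56, and the plasma cell list's median was -0.60. No gene of any list was then called in KPC ASC KO against KPC, where 1 of all 6920 genes was called, against 652 with all mice. Little is therefore read from that.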
